A study of Mus musculus with 8 samples.

Results

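The nuclear-encoded subunits of the respiratory chain and of ATP synthase were followed in mouse kidney tubuloids, and they comprised 84 of the 24063 genes in the deposited tables and 105 of the 33068 transcripts. Genes were taken by symbol: the Nduf A, B, C, S and V series, Sdha to Sdhd, the Uqcr genes, the Cox subunit genes and the Atp5 genes, with assembly factors left out. They fell into 35 genes of complex I, 4 of complex II, 8 of complex III, 19 of complex IV, 15 of complex V and 3 genes of associated proteins. The symbol rule leaves out Cyc1 of complex III, Ndufab1 of complex I and the subunits encoded by mitochondrial DNA.

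Tubuloids are tubule-like structures grown in Matrigel from fragments of postnatal mouse kidney. The study's culture protocol gave a pulse of glial-derived neurotrophic factor at plating. Its medium also held hepatocyte, epidermal and fibroblast growth factors. All 8 cultures carried the same alleles: Pkd2 fl/fl, in which the gene for polycystin-2 can be removed by Cre, Pax8rtTA, TetOCre and the mTmG membrane reporter. The labels gave kidneys of postnatal day 7 to 10, whereas the study's methods gave an earlier range, and neither strain nor sex was labelled. Treatment began on day 3 of culture and lasted 3 days, with doxycycline (DOX, n = 4 libraries), which switches on Cre, or with dimethyl sulfoxide (DMSO, n = 4 libraries), the vehicle, and RNA was taken on day 7. The Pax8 promoter drives the transactivator in renal epithelium, so other cells in the culture keep Pkd2. Removal in the epithelium was also incomplete: the study still detected polycystin-2 after DOX and saw presumably wild-type cells among the differentiated structures. DOX was given only to cultures that carried the floxed alleles, so an effect of DOX itself and an effect of Pkd2 loss cannot be told apart. Separate mice were not stated for the libraries, and p-values therefore measure only the spread between these libraries.

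Complex I takes electrons from NADH and complex II from succinate, and both pass them to ubiquinone. Complex III hands them on to cytochrome c, complex IV passes them to oxygen, and complex V, the ATP synthase, uses the proton gradient that complexes I, III and IV build. The kidney tubule is among the tissues richest in mitochondria, and several complex IV subunits exist as a widely expressed form and a form of muscle, lung or testis.

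Summed counts ranged from 63922677 to 102716313 per library. Fewer genes were detected in DMSO 20 (13243) and DOX 19 (13599) than in the other 6 libraries (17054 to 17903). Pkd2 averaged 6130 ± 1114 normalised counts with DMSO and 4946 ± 772 with DOX (SD, n = 4 per group; DESeq2 adjusted p = 0.999 at a log2 fold change of -0.31), a count that includes reads outside the floxed exons and so does not measure recombination. The 7 epithelial markers had a summed level of 543 to 2343 TPM in DMSO and 725 to 1557 TPM in DOX libraries. Each of the 7 was lowest in DMSO 15, with Pax2 equally low in DOX 21 after rounding. All 7 had a log2 fold change below 0, from -0.85 to -0.00 (median -0.53), where 55.6% of 17011 genes did, and 0 were called. The 7 proximal tubule markers summed to 5.92 to 23.7 TPM per library, most of it Slc5a2 (5.17 to 23.7 TPM). Aqp1 and Slc22a6 reached 1.53 and 1.68 TPM in DOX 19, while Lrp2 stayed at no more than 0.0563 TPM and Slc34a1 was above 0 in a single library. DMSO 15 had 3185 TPM of 9 mural cell markers against 191 to 810 TPM in the remaining libraries, carried by Acta2 (1210 TPM) and Tagln (1710 TPM). Myh11 and Des were also highest in DMSO 15, whereas Rgs5 (49.3 TPM), Cspg4, Kcnj8, Abcc9 and Notch3 were not. Of 7 stromal markers, summed to 2615 TPM in DMSO 15 against 260 to 921 TPM elsewhere, Col1a1, Col1a2, Col3a1, Lum and Dcn were highest in DMSO 15, and Pdgfra and Pdgfrb were not. Ddx3y, a Y-linked gene, was at 24.6 TPM in DMSO 15 and 25.8 TPM in DOX 21 and at 0 in the other 6 libraries.

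The respiratory chain genes were abundant in every library, and their summed level overlapped between DOX and DMSO. A single member, Cox7a1, the heart and skeletal muscle form of a small complex IV subunit, passed the DESeq2 threshold of adjusted p at most 0.05 and at least 1.5-fold, and it was lower with DOX. That is 1 of 81 members with an adjusted p, where 25 of 17011 genes (0.147%) were called in either direction and 11 (0.0647%) were called lower. An unadjusted p under 0.05 was found for 4 members, Cox7a1, Ndufa4l2, Ndufs4 and Cox7c, all with log2 fold changes below 0, where 4.67% of 19268 genes had such a p. That count rested on single libraries: it was 17 members without DOX 21, where 4.77% of all genes had such a p, and 1 member without DOX 12, where 4.18% did. The other 80 members had DESeq2 adjusted p-values above 0.8. By edgeR's quasi-likelihood test, 0 of 15562 genes were called, with a smallest adjusted p of 0.999 and 476 genes at an unadjusted p under 0.05, of which 3 were members.

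The 84 genes together took 3.35% ± 0.502 of the summed TPM (SD, n = 8), where TPM is the deposited length-scaled share of transcripts, added over the transcripts of a gene. The total was 31327 TPM in DMSO 3, 40367 in DMSO 5, 37360 in DMSO 15 and 30251 in DMSO 20. It was 28523 TPM in DOX 9, 30339 in DOX 12, 29200 in DOX 19 and 40248 in DOX 21. DOX 21 lay beside DMSO 5 at the top, the remaining DOX libraries lay near the 2 lowest DMSO libraries, and the groups overlapped. Complex I held 1.16% ± 0.178 of TPM, complex IV 0.91% ± 0.175, complex V 0.805% ± 0.0969, complex III 0.379% ± 0.0557 and complex II 0.0729% ± 0.00905 (SD, n = 8). The order I, IV, V, III, II held for the means; it is a sum over unequal numbers of genes.

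**Figure D1:**
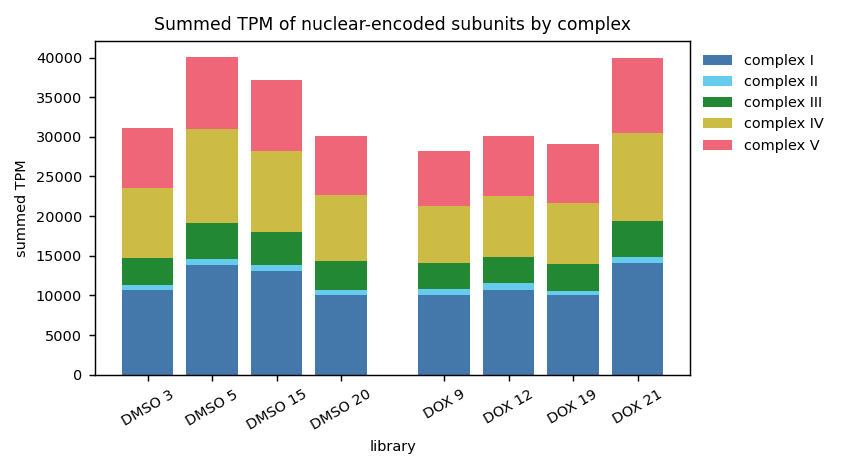
Stacked bars show the summed TPM of the genes of each complex (y axis, from 0) in each library (x axis, DMSO left, DOX right). The totals of the 5 complexes overlap between DMSO and DOX, and DOX 21 and DMSO 5 stand highest.

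Genes of one complex were not equally abundant. To compare genes, the level of the single most counted transcript of each gene was used, since reads appeared to be counted once for each isoform: 12 members had several transcripts, and in 9 of them all transcripts had totals within 10% of each other. On that scale, complex I ran from Ndufa7, an accessory subunit, at 658 TPM to Ndufs1, the large iron-sulphur subunit of the electron input arm, at 50.4 TPM, a 13.1-fold range of mean levels. Complex II ran from Sdhd, a membrane anchor, at 256 TPM to Sdha, the flavoprotein that oxidises succinate, at 124 TPM, a 2.06-fold range. Complex III ran from Uqcrb at 777 TPM to Uqcrfs1, the Rieske iron-sulphur protein, at 131 TPM, and Uqcrfs1 was the lowest in 8 of 8 libraries. Among the 11 complex IV subunits that are not tissue isoforms, Ndufa4, now counted as a subunit of complex IV, was highest at 1410 TPM and Cox5b lowest at 354 TPM. With TPM added over transcripts, the highest of complex IV was instead Cox4i1 at 1935 TPM and the lowest of complex I was Ndufv1 at 81.5 TPM, while complexes II and III had the same genes at both ends. Neighbours in these orders did not keep their rank across libraries: Uqcrb was the highest of complex III in 4 of 8 and Cox5b the lowest of complex IV in 4 of 8.

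The 3 genes of ATP synthase subunit c encode the same mature protein with different import sequences. Atp5g3 had the highest mean of complex V at 913 TPM, though it was the highest in only 3 of 8 libraries, and Atp5g2 the lowest in 8 of 8 libraries at 69.8 TPM. Atp5g1 made up 19.6%, 20.0%, 21.7% and 15.9% of the summed TPM of Atp5g1 and Atp5g3 on the same scale in DMSO 3, 5, 15 and 20 and 28.9%, 25.8%, 25.5% and 23.2% in DOX 9, 12, 19 and 21. The 4 DOX shares lay above the 4 DMSO shares; this separation was noticed after the values were seen and was not tested. Neither gene passed the test on counts, with log2 fold changes of 0.13 (SE 0.238) for Atp5g1 and -0.38 (SE 0.236) for Atp5g3 (DESeq2 adjusted p = 0.999 for both).

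Of the 83 members with a fitted fold change, 24 had a log2 fold change above 0 and 59 below 0 (71.1%), with a median of -0.17. Across all 17011 genes with an adjusted p, 55.6% were below 0 and the median was -0.07, and across the 9084 genes with a mean normalised count of at least 1000 the share was 50.2% and the median -0.00. The counts by role were as follows, with no test of a difference between roles. Roles also differed in transcript length, which is given further below. In complex I, 5 of the 7 core subunits were above 0 (median 0.13), whereas 21 of the 28 accessory subunits were below 0 (median -0.18). In complex II, 3 of 4 were above 0, and in complex III, 6 of 8 were below 0 (median -0.24). All 11 widely expressed complex IV subunits were below 0, from -0.59 to -0.12, and so were all 7 stalk and membrane subunits of complex V, from -0.33 to -0.09. The 5 subunits of the catalytic F1 head had a median of -0.01. Apart from Cox7a1, no member in any complex passed the threshold, so these are counts of direction and not of called genes.

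**Figure D2:**
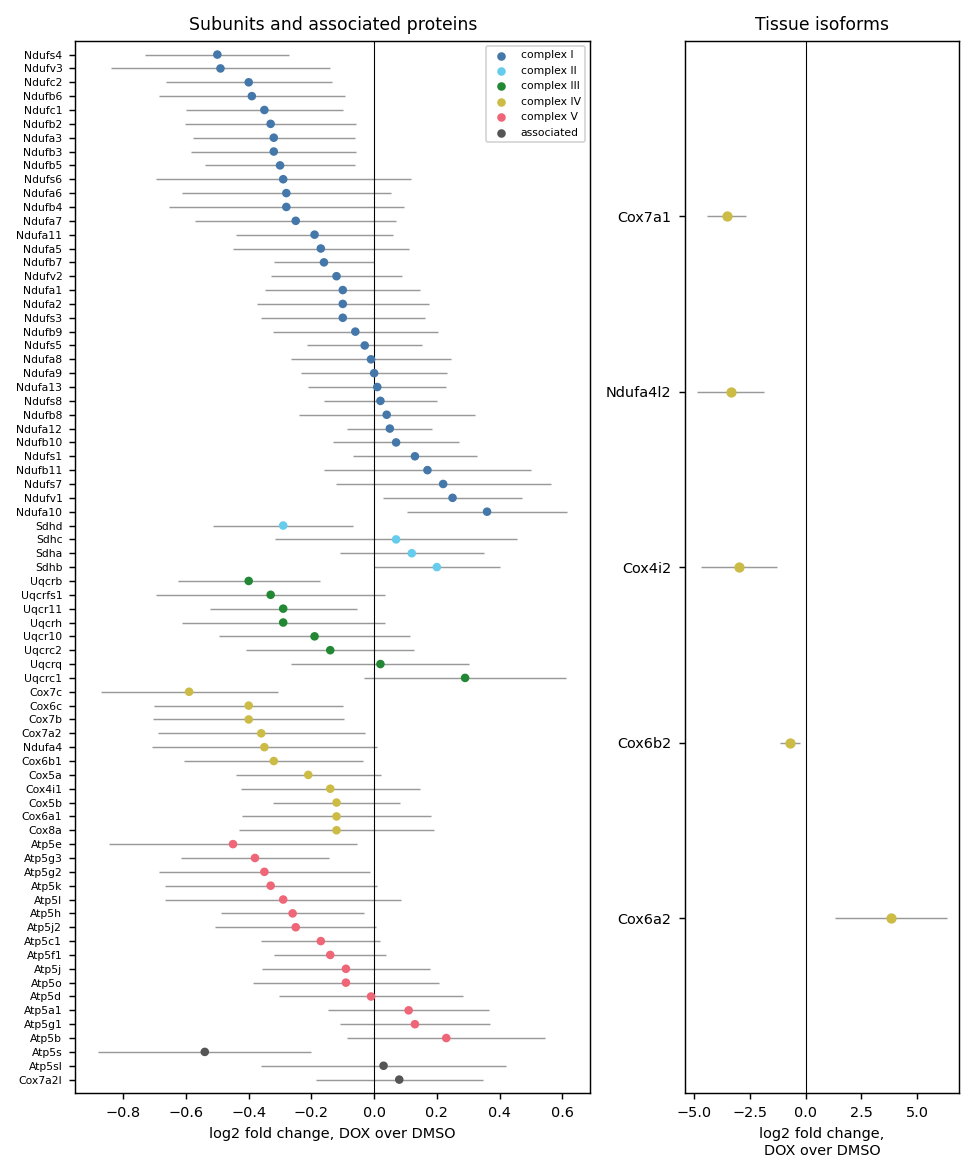
Points show the DESeq2 log2 fold change of DOX over DMSO (x axis) with its SE (bars) for members with a mean normalised count of at least 10 (y axis), by complex, with the tissue isoforms on their own scale at right. All 11 complex IV subunits at left lie below 0, and Cox7a1 lies at -3.52.

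Among the core subunits of complex I, Ndufv1, which binds NADH, had the largest positive value at 0.25 (SE 0.221), followed by Ndufs7 at 0.22 (SE 0.343). Ndufs1 was at 0.13, and Ndufv2, an iron-sulphur subunit beside Ndufv1, had the largest negative value of the core at -0.12. The largest positive value of the whole complex was that of the accessory subunit Ndufa10, at 0.36 (SE 0.255; DESeq2 adjusted p = 0.999). The largest negative value of complex I was that of Ndufs4, an accessory subunit whose loss impairs complex I and is a cause of Leigh syndrome. Its normalised counts were 9304, 11740, 11420 and 10710 in DMSO 3, 5, 15 and 20 and 6632, 6243, 7048 and 10520 in DOX 9, 12, 19 and 21. DOX 9, 12 and 19 lay below every DMSO library, and DOX 21 lay among them, so the groups overlapped. DESeq2 gave a log2 fold change of -0.50 (SE 0.23) with adjusted p = 0.845. Without DOX 21 it was -0.70 and passed the threshold (DESeq2 adjusted p = 0.00616), and over all alternatives the DESeq2 or edgeR adjusted p ranged from 0.00616 to 1.0.

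Ndufa12, Ndufb7 and Ndufs5, accessory subunits of complex I, had the smallest SDs of log2 normalised count among the members with a mean normalised count of at least 10, at 0.12, 0.17 and 0.18 over the 8 libraries, with the core subunit Ndufs8 also at 0.18 after rounding, against a median SD of 0.34 over all members and 0.43 over genes with a mean of at least 1000. In complex II, Sdhb, the iron-sulphur subunit, had the largest positive value at 0.20 (SE 0.201), with Sdha at 0.12 and Sdhc at 0.07, and Sdhd had -0.29 (SE 0.224). In complex III, Uqcrc1, a core protein, was at 0.29 (SE 0.321), Uqcrb at -0.40 (SE 0.226) and Uqcrfs1 at -0.33. In the F1 head, Atp5b, the catalytic beta subunit, was at 0.23 (SE 0.315), Atp5a1 at 0.11, Atp5c1 at -0.17 and Atp5e, the small epsilon subunit, at -0.45 (SE 0.394). None of these members passed the test.

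Cox7c, a small membrane subunit of complex IV, had the largest negative value of the widely expressed subunits. Its normalised counts were 13500, 17440, 15660 and 13580 in DMSO 3, 5, 15 and 20 and 7085, 7891, 10530 and 14430 in DOX 9, 12, 19 and 21. As for Ndufs4, DOX 21 lay within the DMSO range and the remaining DOX libraries lay below it. DESeq2 gave a log2 fold change of -0.59 (SE 0.282) with adjusted p = 0.876, and the lowest DESeq2 adjusted p of any alternative was 0.0773. Cox5a, a subunit on the matrix side of complex IV, was at -0.21 (SE 0.231).

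The members tended to deviate together within a library, as did other short genes. For the 76 members that are not tissue isoforms, the median deviation of log2 normalised count from each gene's mean was 0.35 in DMSO 15, 0.13 in DMSO 5, 0.12 in DMSO 3 and -0.25 in DMSO 20. It was 0.29 in DOX 21, -0.10 in DOX 19, -0.12 in DOX 9 and -0.32 in DOX 12. In DMSO 15, 73 of 76 members lay above their own mean, and in DOX 21, 75 of 76 did, while in DOX 12 only 13 and in DMSO 20 only 17 did. For 601 other genes under 1000 nt with a mean normalised count of at least 1000, the medians were close to these, at 0.12, 0.06, 0.33 and -0.25 in DMSO 3, 5, 15 and 20 and -0.06, -0.32, -0.10 and 0.24 in DOX 9, 12, 19 and 21. The 26 members of 1000 nt or more had medians of 0.18, 0.02, 0.17 and -0.33 in DMSO 3, 5, 15 and 20. In DOX 9, 12, 19 and 21 these were 0.15, -0.04, -0.22 and 0.20. The 8405 other genes of that length and mean count stayed between -0.04 and 0.07 in all libraries. For the members, each group thus held a library near the top and a library near the bottom. The 2 top libraries were those with Y-linked transcripts. They were also the lowest in the summed epithelial markers, at 543 TPM in DMSO 15 and 725 TPM in DOX 21, against 1026 to 2343 TPM in the rest. The part of sex or of cell composition in the levels was not tested.

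**Figure D3:**
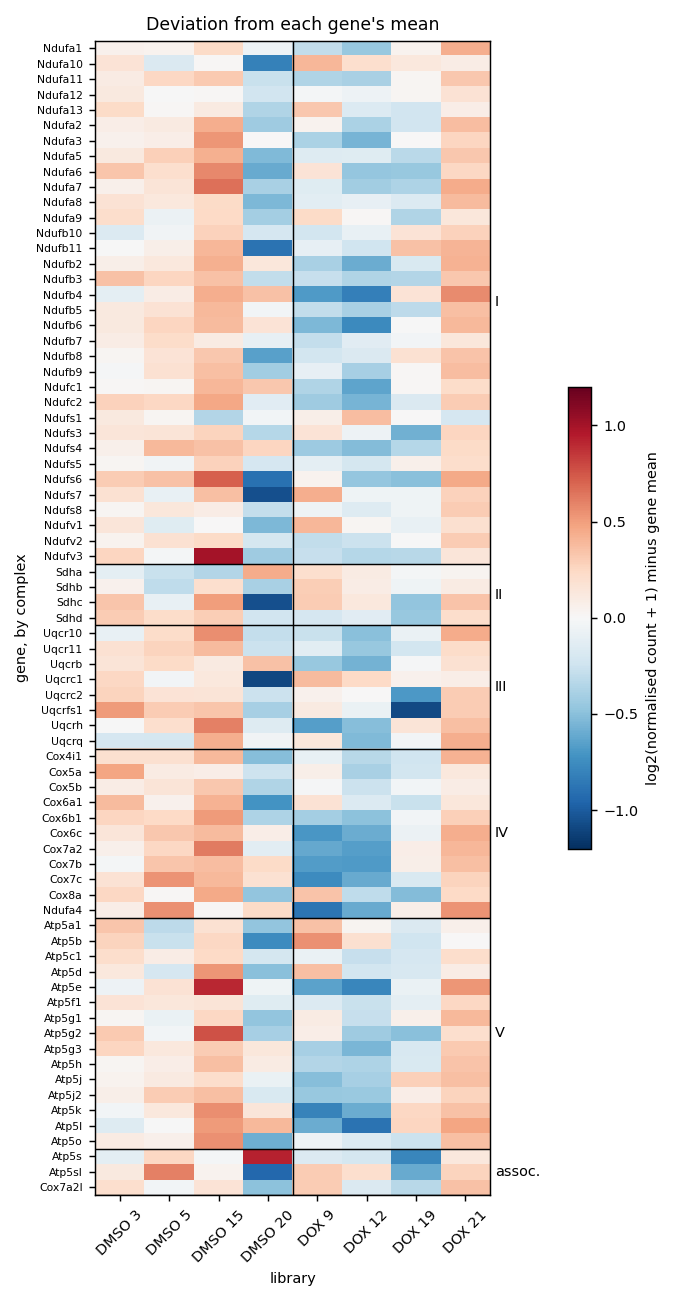
Colours show log2(normalised count + 1) minus the mean of the same gene over the 8 libraries, for 75 members that are not tissue isoforms (rows, by complex) in each library (columns, DMSO left of the line, DOX right). DMSO 15 and DOX 21 are red in nearly all rows and DOX 12 is mostly blue.

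Transcript length moved with direction. Of 50 members with a transcript under 1000 nt, 43 (86.0%) had a log2 fold change below 0 and the median was -0.25, whereas of 26 members of 1000 nt or more, 11 (42.3%) did and the median was 0.01. Over the 76 members, Spearman's rho of length and log2 fold change was 0.46, and over 9006 other genes with a mean normalised count of at least 1000 it was 0.04, both descriptions across genes of the same libraries. Among those other genes, 435 of 601 short genes (72.4%, median -0.16) and 4068 of 8405 longer genes (48.4%, median 0.01) were below 0. The median deviation of the short members was -0.42 in DOX 12, -0.25 in DOX 9, -0.06 in DOX 19 and 0.34 in DOX 21, against 0.09, 0.14, 0.39 and -0.22 in DMSO 3, 5, 15 and 20. Complex IV and the stalk of complex V are made of small proteins. Many accessory subunits of complex I also have transcripts under 1000 nt, while most subunits of its core and of the F1 head have longer ones. The part of length in the direction of these groups was not tested. The length classes were set after the values were seen. Leaving out DMSO 20, DOX 9 or DOX 21 moved the count of longer members below 0 from 11 to 18, 17 and 17 of 26, and the count of short members stayed between 35 and 47 of 50.

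**Figure D4:**
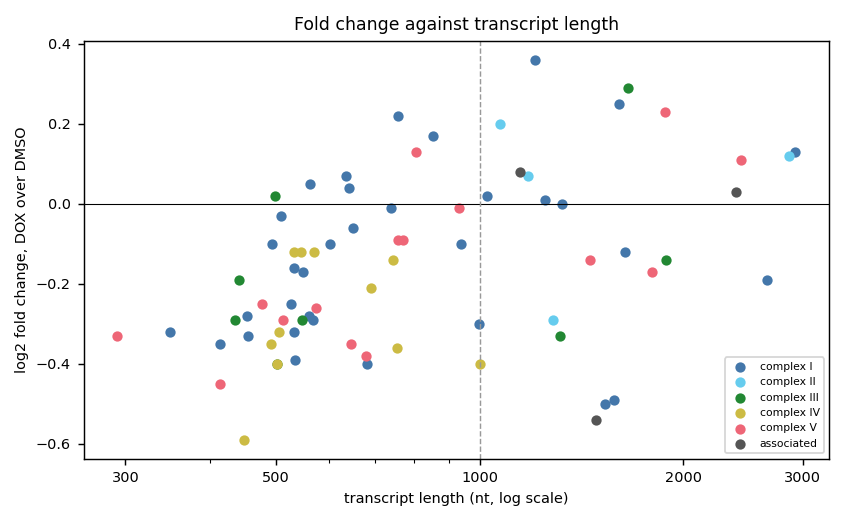
Points show the DESeq2 log2 fold change of DOX over DMSO (y axis) against the length of the most counted transcript in nt (x axis, log scale) for 75 members that are not tissue isoforms, coloured by complex, with a dashed line at 1000 nt. Left of the line 43 of 50 points lie below 0, and right of it 11 of 25.

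The complex IV tissue isoforms Ndufa4l2, Cox4i2, Cox6a2 and Cox7a1 had the largest SDs of log2 normalised count over the 8 libraries of all members, at 3.84, 3.46, 3.29 and 2.2. Cox7a1 lies on chromosome 7 from 30184171 to 30186030 (GRCm38), and no other gene of the RefSeq table overlaps it. Its normalised counts were 169, 90.7, 664 and 138 in DMSO 3, 5, 15 and 20 and 34.8, 20.6, 3.38 and 33.6 in DOX 9, 12, 19 and 21. The 4 DOX libraries all lay below the 4 DMSO libraries, and DMSO 15 stood highest. Groups that did not overlap were found for 1 of 81 members with a mean normalised count of at least 2, Cox7a1, and for 2.72% of 17550 genes. Cox7a1 averaged 266 ± 268 normalised counts with DMSO and 23.1 ± 14.6 with DOX (SD, n = 4 per group). DESeq2 put its log2 fold change at -3.52 (SE 0.877) with adjusted p = 0.0404, and the exact two-sided permutation test over 70 assignments gave p = 0.0286, the smallest it can give.

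The Cox7a1 call was close to its threshold. It was kept without DMSO 20 (DESeq2 adjusted p = 0.0347) and without both DMSO 20 and DOX 19 (DESeq2 adjusted p = 0.014). It was lost in edgeR (adjusted p = 0.999) and, with DESeq2 adjusted p-values of 0.0526 to 0.164, on leaving out DMSO 3, DMSO 5, DOX 9, DOX 12, DOX 19 or DOX 21. Without DMSO 15 the log2 fold change was -2.51 and DESeq2 gave no adjusted p. Over all alternatives that gave a value, the log2 fold change was between -3.8 and -2.51. The value in DOX 19 rests on 3 counts.

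The promoters of the called isoform, its partner, a subunit carrying each motif searched but ACGTG and the accessory subunit Ndufs4 are printed here, so that the letters around the start of the called gene can be set beside those of members that were not called. Windows are 300 bases, 250 before the start of the transcript and 50 after it, taken from RefSeq on GRCm38.p6: Cox7a1 at chr7:30183921-30184220 on the plus strand, Cox7a2 at chr9:79759804-79760103, Cox6a1 at chr5:115348909-115349208 and Ndufs4 at chr13:114388045-114388344, the last 3 on the minus strand. Capitals mark matches on either strand to GCGCANGCG (NRF1), CCGGAAG (ETS factors such as GABP), GATGGCG (YY1), CCAAT and ACGTG, the core of the hypoxia response element.
Cox7a1: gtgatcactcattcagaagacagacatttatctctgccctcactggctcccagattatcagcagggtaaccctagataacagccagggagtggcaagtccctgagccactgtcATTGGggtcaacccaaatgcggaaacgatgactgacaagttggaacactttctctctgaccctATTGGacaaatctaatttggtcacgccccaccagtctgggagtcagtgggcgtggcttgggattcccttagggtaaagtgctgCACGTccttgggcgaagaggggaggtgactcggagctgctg
Cox7a2: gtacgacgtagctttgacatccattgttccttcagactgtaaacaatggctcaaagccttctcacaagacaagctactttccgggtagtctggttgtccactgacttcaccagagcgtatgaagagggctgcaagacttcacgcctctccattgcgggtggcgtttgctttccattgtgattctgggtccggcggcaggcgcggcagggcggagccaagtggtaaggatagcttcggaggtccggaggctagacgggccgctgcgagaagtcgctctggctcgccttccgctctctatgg
Cox6a1: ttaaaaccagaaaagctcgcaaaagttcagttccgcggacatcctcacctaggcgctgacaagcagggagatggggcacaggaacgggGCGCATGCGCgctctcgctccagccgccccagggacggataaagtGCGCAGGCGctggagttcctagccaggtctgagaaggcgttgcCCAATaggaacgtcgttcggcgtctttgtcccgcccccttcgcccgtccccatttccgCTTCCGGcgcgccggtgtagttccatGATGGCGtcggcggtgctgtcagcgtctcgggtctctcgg
Ndufs4: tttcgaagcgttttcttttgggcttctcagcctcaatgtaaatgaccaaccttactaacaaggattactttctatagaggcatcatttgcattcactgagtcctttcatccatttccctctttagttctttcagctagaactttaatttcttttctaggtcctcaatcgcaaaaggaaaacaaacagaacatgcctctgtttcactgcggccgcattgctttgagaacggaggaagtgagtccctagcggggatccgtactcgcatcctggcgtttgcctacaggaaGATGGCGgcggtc

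Cox7a1 held CCAAT on the opposite strand 2 times and ACGTG on the opposite strand, and none of the NRF1, ETS or YY1 letters. Cox6a1 held NRF1 matches at 2 places, the first of which is a palindrome read on both strands, with an ETS, a YY1 and a CCAAT match. Cox7a2 held none of the letters searched, and Ndufs4 held the YY1 letters within the transcribed bases at the end of the window. Over 75 windows of 69 members, NRF1 letters were found in 28.0% against 6.25% of 32851 windows of all genes, ETS letters in 21.3% against 8.86% and YY1 letters in 17.3% against 3.49%. CCAAT was found in 42.7% against 37.4% and ACGTG in 28.0% against 19.6%, and these 2 motifs were added after the values were seen. A match describes the letters only and is not a site, and no match says nothing about the factor.

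In level, Cox7a1 stayed far under its widely expressed partner Cox7a2. Cox7a1 was at 9.84, 6.69, 38.2 and 9.68 TPM in DMSO 3, 5, 15 and 20 and at 2.28, 1.63, 0.216 and 2.2 TPM in DOX 9, 12, 19 and 21, while Cox7a2 was between 284 and 586 TPM. As a share of the pair, Cox7a1 was 2.39%, 1.14%, 6.12% and 2.23% in the DMSO libraries and 0.796%, 0.489%, 0.0484% and 0.384% in the DOX libraries, in the same order. The shares did not overlap either, though Cox7a2 itself had a log2 fold change of only -0.36 (SE 0.33; adjusted p = 0.999 in DESeq2). Of 7 striated muscle markers, Ckm was at no more than 0.0287 TPM, Myh7 at 0 in all libraries, Myh6 at no more than 0.00672 TPM and Myl2 at no more than 0.199 TPM. Actc1 reached 0.562 TPM and Acta1 5.96 TPM, both in DMSO 15. Tnnt2 reached 344 TPM in DOX 19 and 331 TPM in DMSO 15, against 41.0 to 191 TPM elsewhere. Mural cell markers had summed levels of 191 to 3185 TPM in DMSO and 427 to 591 TPM in DOX libraries. DMSO 15 was the highest library in Cox7a1 and in the contractile markers Acta2, Tagln, Myh11 and Des, but not in the other 5 mural markers. It was also the lowest library in the epithelial markers. The part of mural or epithelial cells in the Cox7a1 difference was not tested. In such bulk samples, fewer cells of a type and less RNA per cell cannot be told apart.

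**Figure D5:**
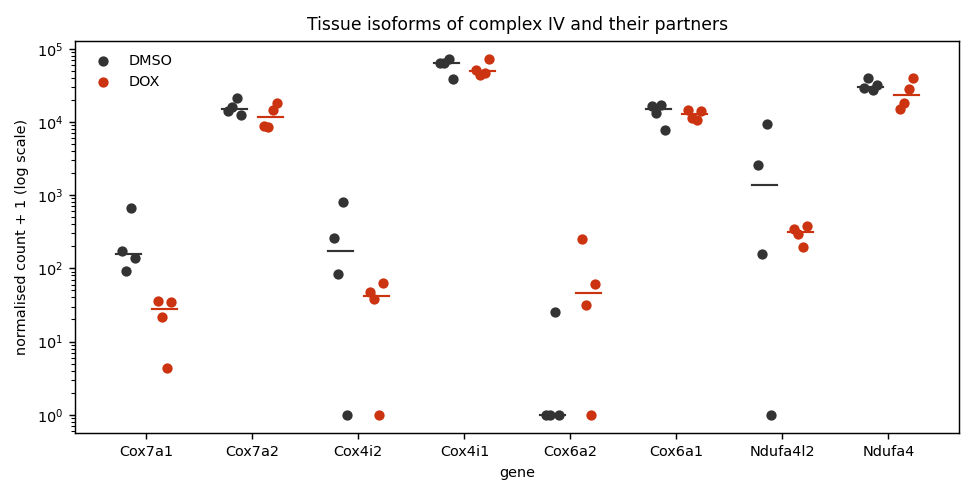
Points show normalised count + 1 (y axis, log scale) of 4 tissue isoforms and their widely expressed partners (x axis) in the DMSO (dark) and DOX (red) libraries, with the median of each group as a bar, and points at the bottom are libraries with 0 counts. The 4 DOX libraries of Cox7a1 lie below the 4 DMSO libraries, and the groups of every other gene shown overlap.

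Ndufa4l2 encodes a hypoxia-inducible relative of Ndufa4 and is a known target of HIF1. Its normalised counts were 2582, 156, 9490 and 0 in DMSO 3, 5, 15 and 20 and 341, 292, 193 and 373 in DOX 9, 12, 19 and 21. DMSO 3 and DMSO 15 stood far above the rest, DMSO 5 and DMSO 20 lay below every DOX library, and the DOX libraries lay close together. The DESeq2 log2 fold change, which compares means, was -3.35 (SE 1.5, adjusted p = 0.83), whereas the difference of mean log2(normalised count + 1) was 0.23 (exact permutation p = 0.943). The direction therefore differed between the mean of counts and the mean of logs. DMSO 20, a library with few genes detected, entered the log mean at 0. Without DMSO 20, the library at 0, the DESeq2 log2 fold change was -3.78 and passed the threshold (adjusted p = 0.0348), and without DMSO 15, the highest library, it was -1.60 (DESeq2 adjusted p = 0.868). Of the pair with Ndufa4, Ndufa4l2 made up 4.37%, 0.201%, 15.0% and 0% in DMSO 3, 5, 15 and 20 and 0.344% to 1.16% in the DOX libraries.

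DMSO 3 and DMSO 15 were also high in most other hypoxia-inducible genes. Of 18 such genes, 17 had a log2 fold change below 0 (median -0.96) and 1 was called lower, Ankrd37, at -3.17 (SE 0.743; DESeq2 adjusted p = 0.0228), where 55.6% of 17011 genes were below 0 and 0.0647% were called lower. Pdk1, which restrains pyruvate entry into the citric acid cycle, was at -1.97 (DESeq2 adjusted p = 0.13), and Bnip3, a mitophagy receptor, was at -2.91 (DESeq2 adjusted p = 0.257). The summed level of the 18 genes was 12329, 4259, 19961 and 4259 TPM in DMSO 3, 5, 15 and 20 and 7126, 6572, 4872 and 6716 TPM in DOX 9, 12, 19 and 21. DMSO 15 and DMSO 3 were highest in this sum, most of which was Ldha, Aldoa and Eno1, and in Ndufa4l2. Vegfa in DMSO 3 (467 TPM) lay below every DOX library (521 to 1010 TPM). Adm, Slc2a1, Hk2, Ndrg1 and Ero1l were higher in a DOX library than in DMSO 3. In the other genes of the list, both DMSO 3 and DMSO 15 lay above every DOX library. What part the oxygen supply of the cultures had in these levels was not tested.

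Cox4i2 is the lung form of subunit 4 and is itself raised by hypoxia in some cells. Its normalised counts were 262, 82.6, 800 and 0 in DMSO 3, 5, 15 and 20 and 45.8, 37.0, 0 and 63.0 in DOX 9, 12, 19 and 21. DMSO 3, 5 and 15 lay above every DOX library, and the libraries at 0 were DMSO 20 and DOX 19, those with the fewest genes detected. The DESeq2 log2 fold change was -2.97 (SE 1.69, adjusted p = 0.999), and the exact permutation test gave p = 0.457. Without DMSO 15 the log2 fold change was -1.65, with no adjusted p, and without both DMSO 20 and DOX 19 it was -2.97 (DESeq2 adjusted p = 0.0508). Its partner Cox4i1 was at 666 to 1180 TPM on the scale of 1 transcript per gene, and Cox4i2 made up 0% to 2.21% of the pair.

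Cox6a2, the heart and skeletal muscle form of subunit 6a, was the member with the largest positive value. It had 0, 0, 24 and 0 counts in DMSO 3, 5, 15 and 20 and 294, 43, 0 and 57 counts in DOX 9, 12, 19 and 21. DOX 9, 12 and 21 and DMSO 15 had counts, and the groups overlapped. The DESeq2 log2 fold change was 3.82 (SE 2.5, adjusted p = 0.999), the exact permutation test gave p = 0.143, and the partner Cox6a1 was at -0.12. Without DOX 9 the value was 2.33 (DESeq2 adjusted p = 0.999), and without DMSO 15, which leaves the DMSO libraries at 0 counts, the fitted value was 8.77, which is no bound and has no adjusted p. Cox6a2 made up 0% to 1.37% of the pair. The loci of Cox4i2, Cox6a2 and Ndufa4l2 overlap other RefSeq genes (Gm32057 and Bcl2l1, Itgad, and Shmt2), and since the strand setting of the counting was not given, reads of such neighbours cannot be told apart.

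The remaining testis and muscle forms were low or absent, except Cox6b2. Cox6b2, the testis form of subunit 6b, was at 17.9 to 70.5 TPM on the scale of 1 transcript per gene, and DESeq2 put its log2 fold change at -0.68 (SE 0.455, adjusted p = 0.999). Without DMSO 15 this was -0.22 and without DOX 9 -1.0, neither of which passed the test. Its 6 annotated transcripts had near-equal counts, so a TPM added over them overstates its level. The 5 male germ cell markers together were at no more than 0.329 TPM. Cox7b2 had 2 counts in each of 2 DMSO libraries, Cox8b had 6 counts in DOX 12 and none elsewhere, and Cox8c had 0 counts in all 8 libraries, which allows up to 0.0292 to 0.0469 CPM (3 counts of each library's total; counting error only).

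Genes around the chain were read from the same fit, in which 55.6% of genes were below 0, 0.147% were called and 4.67% had an unadjusted p under 0.05. Of 43 assembly factors in the tables, which build the complexes but are not part of them, 24 were above 0 and 19 below (median 0.01) and 0 were called. A single factor, Cox10, an enzyme of heme A synthesis for complex IV, had an unadjusted p under 0.05, at 0.63 on the log2 scale (SE 0.205; DESeq2 adjusted p = 0.322). Of 15 regulators, 11 were above 0 and 4 below, and 0 were called by DESeq2, with 2 at an unadjusted p under 0.05: Nrf1, which drives many respiratory chain genes, at 0.25 (SE 0.109; DESeq2 adjusted p = 0.812) and Pprc1, a coactivator of the same genes, at 0.53 (SE 0.246; DESeq2 adjusted p = 0.868). Ppargc1a, the coactivator of mitochondrial biogenesis, was at 0 to 5.9 TPM in DMSO and 0 to 3.84 TPM in DOX libraries. Of the 4 electron carriers and subunits outside the symbol rule, Cyc1 was at 0.13, Cycs, the mobile carrier, at -0.21 and Ndufab1, the acyl carrier subunit of complex I, at -0.46 (SE 0.196; DESeq2 adjusted p = 0.787). None of the 4 was called, and Ndufab1 alone had an unadjusted p under 0.05 in DESeq2.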

How the data were processed

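RNA of 8 tubuloid cultures (4 DMSO, 4 DOX, grouped by sample title) was made into poly-A selected SMART-Seq v4 libraries. Per the submitters' processing notes, the authors used STAR, featureCounts and DESeq2 on mm10 (GRCm38), and versions and strand setting were not given in the sources used here. The files hold deposited counts, unnormalised whole numbers for each RefSeq transcript. The deposited FPKM divides these by length and by the library's sum, and the deposited TPM sets FPKM to an equal total in all libraries.

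Counts and TPM were summed by symbol. Counts were compared with DESeq2 1.42.0 in R 4.3.3 (median-of-ratios scaling, filtering by Cook's distance and by mean count at alpha 0.1, no shrinkage of fold changes, Benjamini-Hochberg adjustment over all genes, called at adjusted p at most 0.05 and at least 1.5-fold), the test of the study's methods, with edgeR 4.0.16 beside it and an exact two-sided permutation test on log2(normalised count + 1) for 4 tissue isoforms. Both fits were tested on simulated data. FPKM served only to obtain transcript lengths. Summing counts over isoforms overstates reads, so levels of genes were also compared by the most counted transcript. Library numbers were not shared between groups, so no pairing was made. Alternatives were TMM scaling, a minimum of 10 counts in every library, the Cook's filter off, 1 transcript per gene and leaving out libraries. The members and lists were chosen with earlier results of these data known. Named genes were the tissue isoforms and partners, core subunits, subunit c, extremes of level, fold change and SD in the complexes, and members with an unadjusted p under 0.05. The values of 1 member are not reported here, and it is left out of the plots by gene, though it enters the counts and sums.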

Additional observations from a re-analysis of the deposited data

Results flagged for a closer look

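Libraries far from the rest of their group of 4 were sought in 26 groups of values, where chance gives about 1 in 20. DOX 21 was apart from the other DOX libraries in the share of TPM taken by complex III (0.4575%, nearest 0.3387%), by complex IV (1.101%, nearest 0.7742%) and by all members (4.025%, nearest 3.034%). These 3 shares come from the same library and overlap in genes. DOX 19, a library with few genes detected, was apart in Cox4i2, with a log2(normalised count + 1) of 0.0 against 5.247 in the nearest DOX library. DMSO 15 was apart in Cox6a2, with 4.648 on the same scale (24 counts) against 0.0 in the other DMSO libraries. With those tied at 0, any count above 0 would have been flagged, so the rate by chance does not apply to this flag.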

How the results depend on the processing

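Cox7a1 kept its direction in every fit made and lost its call in 8 of its 13 alternatives. Of all 94 alternatives run on named members, 2 gained a call, Ndufa4l2 without DMSO 20 and Ndufs4 without DOX 21, and 84 moved none across the threshold. The number of members called was 1, and it was 0 in edgeR, 0 with at least 10 counts in every library (which removes Cox7a1 from the test) and 0 to 2 on leaving out a library. The number of genes called was 25, and it was 0 in edgeR, 16 with at least 10 counts in every library, 48 with the Cook's filter off, 51 without DMSO 20 and DOX 19, and 14 to 75 on leaving out a library. With 1 transcript per gene, which lowers the total that shares are taken of, the members held 4.50% of TPM, complex I 1.43%, II 0.113%, III 0.588%, IV 1.22% and V 1.13%. Median log2 fold changes of the complexes without tissue isoforms stayed within -0.25 to -0.04 (I), -0.03 to 0.19 (II), -0.41 to -0.11 (III), -0.49 to -0.20 (IV) and -0.27 to -0.10 (V), and members below 0 numbered 51 (without DMSO 15) to 70 (without DMSO 20) of 83. No paired analysis was possible because library numbers were not shared between groups. Cox6a2, Cox7b2 and Cox8b rest on few counts. Causes of the changes between settings were not tested.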
